A study of Sus scrofa with 8 samples.

Results

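The 7 genes described here encode proteins of the slow-twitch sarcomere, the contractile unit of muscle fibres that contract slowly and resist fatigue. They are the 3 slow troponin subunits TNNT1, TNNC1 and TNNI1, the slow myosin heavy chain MYH7, the myosin light chains MYL2 and MYL3, and the slow tropomyosin TPM3. The platform annotation gave 9 of the 23999 probe sets 1 of these symbols, with 3 probe sets for TPM3 and 1 for each other gene. The members were chosen by their roles and by their corticosteroid-minus-control differences on these same arrays, so those differences are described here and not tested. For each gene the probe set of highest mean log2 level over the 8 arrays is given first.

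Total RNA of biceps femoris, a hind-limb muscle, from female domestic piglets was hybridized to Affymetrix porcine arrays, 1 for each sample. The study is a model of the limb weakness of intensive care named acute quadriplegic myopathy in the labels. The 4 corticosteroid arrays came from piglets kept sedated with isoflurane, supplemented with morphine and ketamine, and ventilated through a tracheotomy for 5 days, with bolus doses of hydrocortisone, a glucocorticoid. The 4 control arrays came from piglets with the same 5 days of sedation and ventilation and no hydrocortisone in their text. Both texts also give glucose, fluids, streptomycin and bensylpenicillin to all animals. The text of the corticosteroid samples speaks of 8 piglets of 26.4 kg on average. The text of the control samples speaks of 4 piglets of 25.5 kg and adds an Escherichia coli endotoxin infusion of 36 µg/kg/h for 1 h, which their source label does not name. The series' design text also names pancuronium, which blocks the neuromuscular junction, and does not assign it to a group. Hydrocortisone, endotoxin and the blocker cannot be told apart between the groups. No processing batch is given in what was used here, and one that ran with the groups could not be told apart from them either. The labels do not tie arrays to separate animals, so any p-value measures the spread between these samples, which may be technical.

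Values are the deposited log2 expression levels, with the corticosteroid columns re-assigned to the probe IDs as described under the processing. The re-assignment moved the rows of TNNC1, TNNI1, MYL2 and the third TPM3 probe set. The rows of TNNT1, MYH7, MYL3 and the other 2 TPM3 probe sets are the same in both orders. The labelled tissue had its markers: the 7 measured genes of 8 on the skeletal muscle fibre list had a mean log2 level of 13.58 to 13.68 on corticosteroid arrays and 13.21 to 13.63 on control arrays. Control replicate 2 stood apart from the other arrays in several gene groups, as given beside the results.

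In striated muscle, calcium bound to troponin C lets troponin I release its hold on the thin filament, and troponin T ties the complex to tropomyosin. Slow and fast fibres build this complex, and the myosin motor with its light chains, from separate genes. The ratio of the 2 sets of transcripts is therefore a common readout of the fibre types in a muscle. In whole-muscle RNA, fewer slow fibres and less slow-isoform RNA per fibre cannot be told apart.

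All 7 genes had a lower mean level in corticosteroid-treated muscle than in control muscle, with log2 differences of -1.78 to -0.56 and a median of -0.98. Over all 14361 probe sets tested the median difference was 0.02, and the range from the 5th to the 95th percentile ran from -0.64 to 0.58. Every corticosteroid array lay below every control array for the lead probe sets of 3 of the 7 genes, TNNT1, MYH7 and MYL2, against 2.51% of the probe sets tested. This count belongs to the same comparison that the members were chosen by, so nothing is read from it. It was 5 without control replicate 4, with TNNC1 and TPM3 added, where 4.23% of the probe sets tested lay so. In limma's test across the table with Benjamini-Hochberg adjustment, 0 of 14361 probe sets passed at 0.05 (0%), with a smallest adjusted p of 0.469. Without adjustment, 1363 probe sets (9.49%) had a p under 0.05.

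**Figure D1:**
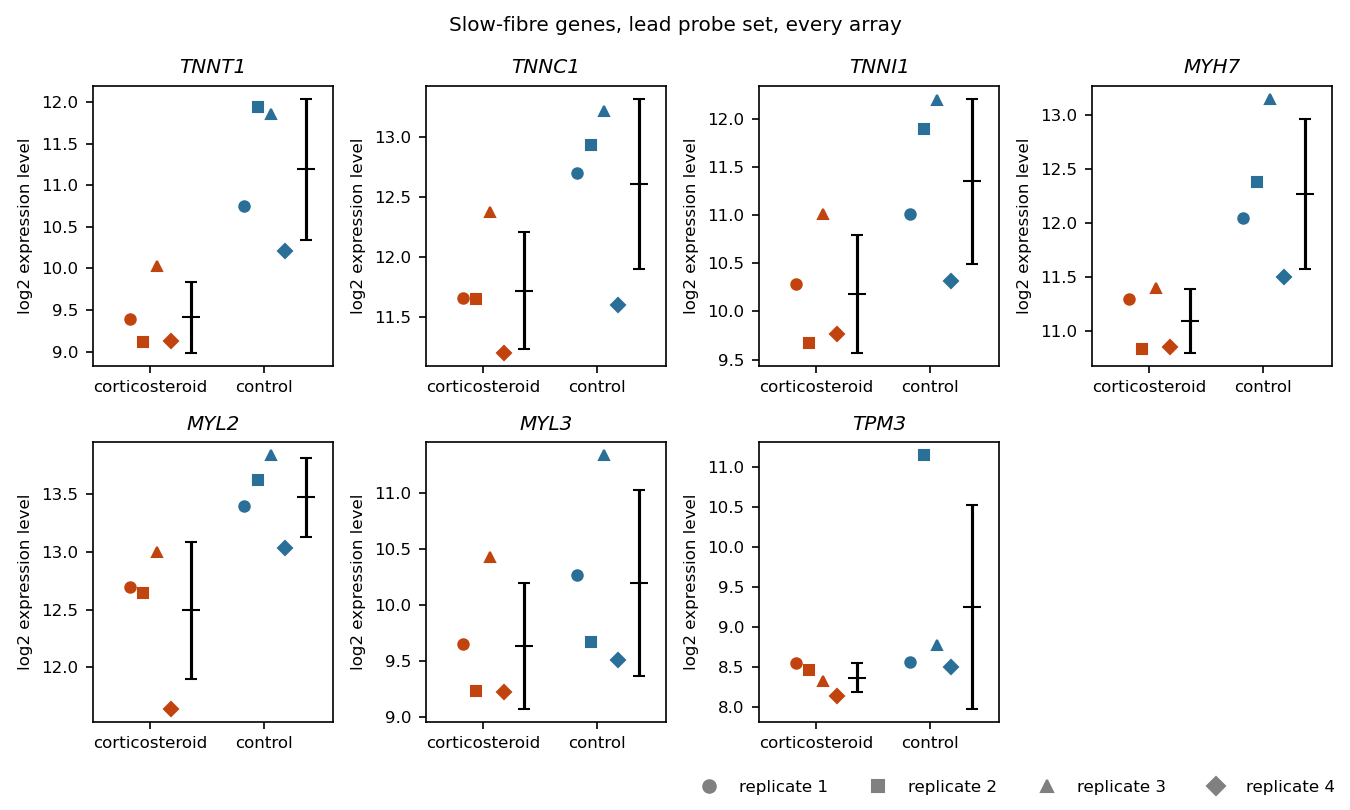
Log2 expression level (vertical axis) of the lead probe set of each slow-fibre gene on the 4 corticosteroid and 4 control arrays. Each marker is 1 array with its shape giving the replicate number, and the black bar to the right of each group is the mean ± SD (n = 4). TNNT1, MYH7 and MYL2 do not overlap between groups, control replicate 4 lies lowest of the controls for every gene, and control replicate 2 stands alone at 11.15 for TPM3.

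TNNT1, the slow troponin T that anchors the troponin complex on tropomyosin, had the largest difference of the 7. Its log2 level was 9.39, 9.11, 10.03 and 9.12 on corticosteroid replicates 1 to 4, and 10.75, 11.94, 11.86 and 10.21 on control replicates 1 to 4. The groups did not overlap, and the gap between corticosteroid replicate 3 and control replicate 4 was the narrowest. The level averaged 9.41 ± 0.43 with corticosteroid and 11.19 ± 0.85 in controls (SD, n = 4 each), a difference of -1.78 (limma SE 0.40), or 3.42-fold lower. When each array was left out in turn the difference ran from -2.10 without control replicate 4 to -1.53 without control replicate 2.

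TNNC1, the calcium-binding troponin C that slow fibres share with the heart, had lower and overlapping values. Its log2 level was 11.66, 11.65, 12.38 and 11.20 on corticosteroid replicates 1 to 4, against 12.70, 12.93, 13.22 and 11.60 on control replicates 1 to 4. Control replicate 4 lay below 3 of the 4 treated arrays, and the other 3 controls lay above all 4. The difference was -0.89 (limma SE 0.35), or 1.85-fold lower.

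TNNI1, the slow inhibitory subunit, behaved alike across arrays. The level was 10.29, 9.67, 11.01 and 9.77 on corticosteroid replicates 1 to 4, and 11.01, 11.89, 12.19 and 10.31 on control replicates 1 to 4. Corticosteroid replicate 3 reached the level of control replicate 1, and control replicate 4 lay just above corticosteroid replicate 1. Means were 10.18 ± 0.61 with corticosteroid and 11.35 ± 0.86 in controls (SD, n = 4 each), a difference of -1.17 (limma SE 0.44), or 2.25-fold lower.

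MYH7 encodes the slow, or beta, myosin heavy chain, the motor of slow fibres and of the adult ventricle. The log2 level was 11.30, 10.83, 11.40 and 10.85 on corticosteroid replicates 1 to 4, and 12.04, 12.37, 13.15 and 11.50 on control replicates 1 to 4. All treated arrays lay below all controls, with corticosteroid replicate 3 and control replicate 4 only narrowly apart. The spread was smaller among treated arrays, with means of 11.09 ± 0.30 with corticosteroid and 12.27 ± 0.69 in controls (SD, n = 4 each) and a difference of -1.17 (limma SE 0.32).

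MYL2, the regulatory light chain that is phosphorylated on the slow and ventricular myosin neck, had the highest signal of the 7 lead probe sets. Levels were 12.70, 12.64, 13.00 and 11.64 on corticosteroid replicates 1 to 4, against 13.40, 13.62, 13.84 and 13.03 on control replicates 1 to 4. The groups did not overlap, although corticosteroid replicate 3 and control replicate 4 nearly met, and corticosteroid replicate 4 was far the lowest array. The difference was -0.98 (limma SE 0.28), or 1.97-fold lower, and -0.69 without corticosteroid replicate 4.

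MYL3, the essential light chain of the same myosin, differed least. Its level was 9.66, 9.24, 10.43 and 9.23 on corticosteroid replicates 1 to 4, and 10.27, 9.67, 11.34 and 9.51 on control replicates 1 to 4. The groups overlapped broadly, and control replicate 2, high for the other 6 genes, had almost the level of corticosteroid replicate 1. The difference was -0.56 (limma SE 0.42), and -0.18 without control replicate 3.

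TPM3 encodes the slow alpha-tropomyosin that lies along the thin filament, and through other splice forms also tropomyosins of non-muscle cells. The lead probe set read 8.55, 8.46, 8.33 and 8.14 on corticosteroid replicates 1 to 4, and 8.57, 11.15, 8.78 and 8.50 on control replicates 1 to 4. The second, annotated to the same accession, read 8.24, 8.32, 8.23 and 8.16 on the treated arrays and 8.47, 11.01, 8.58 and 8.30 on the controls. On both, control replicate 2 stood far above all other arrays, and the other 7 arrays lay close together.

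The third TPM3 probe set, whose row the re-assignment moved, did not share that pattern. It read 6.62, 6.18, 6.66 and 6.07 on corticosteroid replicates 1 to 4, and 6.95, 7.06, 7.28 and 6.84 on control replicates 1 to 4. Here control replicate 2 lay among the other controls, and all treated arrays lay below all controls. The difference was -0.65 (limma SE 0.19) on the third probe set, -0.88 (limma SE 0.53) on the lead and -0.85 (limma SE 0.53) on the second. Without control replicate 2 the lead probe set differed by -0.25 and the second by -0.22.

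**Figure D2:**
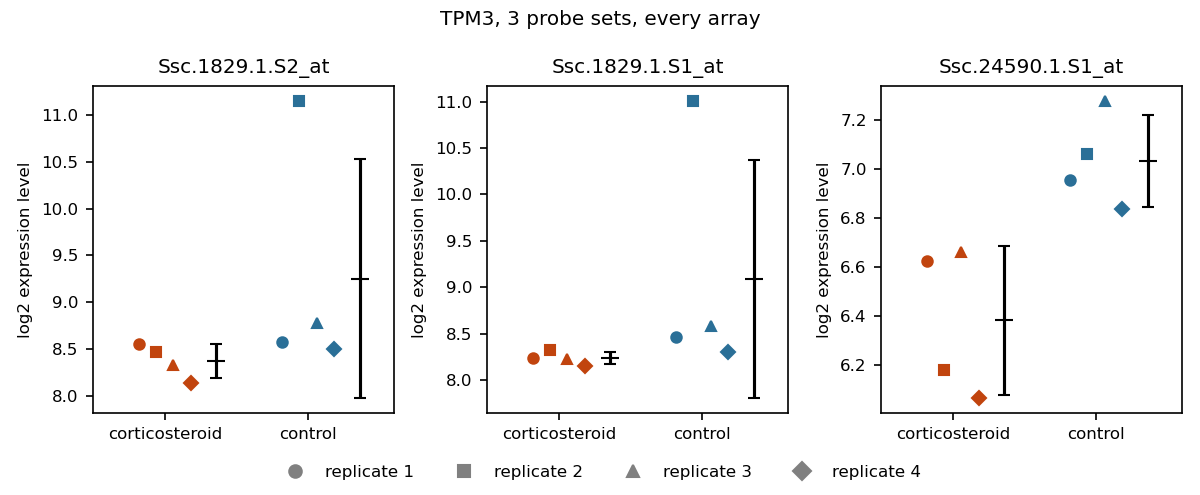
Log2 expression level (vertical axis, a separate scale in each panel) of the 3 TPM3 probe sets on the 4 corticosteroid and 4 control arrays, with marker shape giving the replicate and black bars the mean ± SD (n = 4). Control replicate 2 stands at 11.15 and 11.01 on the first 2 probe sets and at 7.06, among the other controls, on the third.

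Macrophage markers moved with control replicate 2, and their part in the TPM3 signal was not tested. All 5 measured genes of the 8 on the macrophage list had lower means with corticosteroid (4 without control replicate 2), and their mean log2 level ran from 6.40 to 7.20 on corticosteroid arrays and from 6.92 to 8.80 on control arrays. The highest was control replicate 2. AIF1, a cytoskeletal protein of macrophages, read 6.24, 6.26, 6.65 and 6.03 on corticosteroid replicates 1 to 4, and 6.52, 9.62, 6.67 and 6.22 on control replicates 1 to 4. CD14, an endotoxin co-receptor of monocytes and macrophages, read 5.53 to 5.79 on treated arrays and 5.73, 7.40, 5.72 and 5.22 on control replicates 1 to 4. Both genes thus stood high on the array where the first 2 TPM3 probe sets did. The other macrophage genes were also highest there but stood less apart. C1QA read 7.85 on control replicate 2 and 7.75 on control replicate 1, and C1QC 9.45 and 9.27. CD163 read 9.67 on control replicate 2, and 8.43 and 8.53 on corticosteroid replicates 1 and 2. The 4 measured fibroblast markers of 6 had a mean level of 8.41 to 9.07 on corticosteroid arrays. On control arrays it was 8.42 to 9.51, also highest on control replicate 2. The fibroblast genes did not go together there. COL1A2 (10.13), LUM (9.80) and DCN (11.63, with 11.51 on corticosteroid replicate 2) were highest on that array, and COL3A1 (6.48) was lowest of the 8 arrays.

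The erythroid marker ALAS2 was high on another array, control replicate 3, where 5 of the 7 slow-fibre genes had their highest control value. The 2 measured genes of 4, HBB (a globin chain) and ALAS2, had a mean log2 level of 6.29 to 6.95 on corticosteroid arrays and 6.81 to 8.41 on control arrays. ALAS2, the haem synthesis enzyme of red cell precursors, read 5.51 to 6.10 on treated arrays and 5.68, 5.79, 8.47 and 6.03 on control replicates 1 to 4. HBB read 7.06 to 7.80 on the treated arrays and 7.83 to 8.34 on the controls, with 8.28 on control replicate 4. HBB was thus lower on every treated array than on every control, as were 2.51% of all probe sets tested. The gap was narrow, from 7.80 on corticosteroid replicate 2 to 7.83 on control replicate 2, and ALAS2 overlapped between groups. HBB was also high on control replicate 4, the lowest of the controls for the slow genes. The part of these cells in the slow-fibre values was not tested. Leaving out control replicate 3 gave a median difference of -0.88 over the 7 genes, and leaving out control replicate 2 gave -0.93.

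The slow-fibre genes also went together from array to array within each group, a measure that does not use the difference between groups. Corticosteroid replicate 3 was the highest treated array for 6 of the 7 genes, and replicates 2 and 4 shared the lowest place, with 3 and 4 genes. Among controls, replicate 4 was lowest for 7 of 7 genes and replicate 3 highest for 5, with control replicate 2 highest for TNNT1 and TPM3. Averaged over the 7 genes, the deviation from the own group's mean was 0.09, -0.19, 0.52 and -0.42 on corticosteroid replicates 1 to 4, and -0.23, 0.46, 0.58 and -0.81 on control replicates 1 to 4. On the common scale centred over all 8 arrays, corticosteroid replicate 3 (-0.01) therefore stood above control replicate 4 (-0.28).

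**Figure D3:**
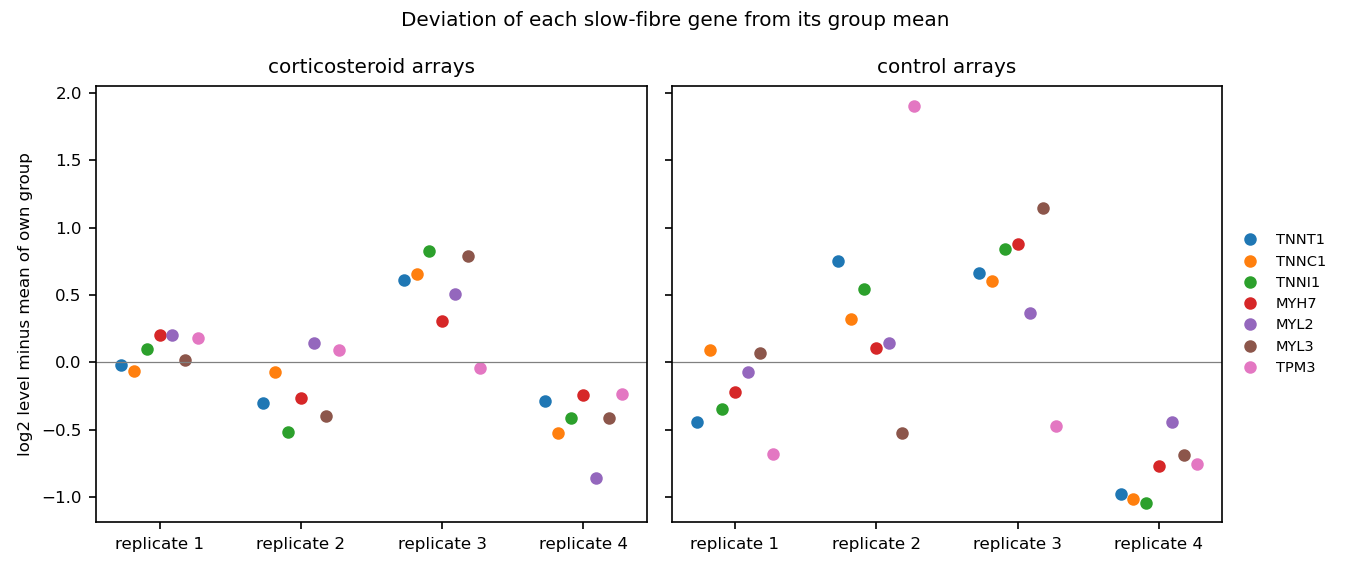
Log2 level of each slow-fibre gene minus the mean of its own group (vertical axis) on the 4 corticosteroid arrays (left) and the 4 control arrays (right), 1 colour a gene. Most genes lie together on each array, with corticosteroid replicate 3 high and control replicate 4 low, while TPM3 and MYL3 part from the rest on control replicate 2.

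After the group means were subtracted, the 15 pairs among the 6 genes other than TPM3 correlated with Pearson's r of 0.61 to 0.97 over the 8 arrays. The closest pair was TNNT1 with TNNI1 (r = 0.97), followed by TNNI1 with MYH7 (r = 0.92) and TNNC1 with TNNI1 (r = 0.92). The 6 pairs that include TPM3 had r of -0.27 to 0.59. These correlations describe 8 arrays that also share hybridization and scaling, and are given without a test. Pairs of other genes were not computed beside them, so whether such values are particular to the slow-fibre genes was not tested. The spread within groups was wide for these genes: the pooled SD was 0.67 for TNNT1, 0.61 for TNNC1, 0.75 for TNNI1, 0.53 for MYH7, 0.49 for MYL2, 0.71 for MYL3 and 0.91 for TPM3. Over the probe sets tested the median was 0.31 and the 90th percentile 0.64.

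The differences of the members were not of the same size. TNNT1 had the largest, in the comparison that the members were chosen by, so its place against the others is described and not tested. Set against the mean of the other 6 genes on the same array, TNNT1 was lower on all 4 corticosteroid arrays than on all 4 controls. Centred over the 8 arrays, that log2 ratio was -0.55, -0.55, -0.31 and -0.26 on corticosteroid replicates 1 to 4, and 0.17, 0.75, 0.52 and 0.22 on control replicates 1 to 4, a difference of -0.83. Of single probe sets tested, 2.51% lay lower on every treated array than on every control, and no share was computed for such ratios. For the other 6 genes the groups overlapped on the ratio, and each difference moved by over 1.5 times with at least 1 array left out. That of MYL3 was 0.58, and 0.20 without control replicate 2. That of TPM3 was 0.21, with 0.77 without control replicate 2 and -0.20 without control replicate 3. MYL3 was lowest against the others on control replicate 2 (-1.44), the array where TPM3 was highest against them (1.57).

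The balance of slow over fast isoforms was taken within each array as the log2 level of the slow gene minus that of its fast counterpart. Each pair was centred on its mean over the 8 arrays, since the levels of different probe sets cannot be set against each other. Of 9 pairs planned, 7 had both genes in the table, and MYH1 and MYH4 were not analysed here. Averaged over the 7 pairs, the balance was -0.47, -0.90, -0.27 and -1.23 on corticosteroid replicates 1 to 4, against 0.17, 1.64, 1.43 and -0.37 on control replicates 1 to 4. The treated arrays all lay below the centre, but control replicate 4 lay among them. The difference was -1.44, a 2.70-fold lower ratio with corticosteroid, and -1.13 without control replicate 2.

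TNNT1 over the fast troponin T, TNNT3, had the widest shift. This balance was -1.13, -1.47, -0.63 and -1.63 on corticosteroid replicates 1 to 4, and 0.35, 2.61, 1.97 and -0.07 on control replicates 1 to 4. The groups did not overlap, and the ratio was 5.39-fold lower with corticosteroid. MYL2 over the fast regulatory light chain MYLPF also did not overlap, with -0.33, -0.40, -0.09 and -1.41 on corticosteroid replicates 1 to 4 and 0.31, 0.91, 1.03 and -0.02 on control replicates 1 to 4. These were the only 2 of the 7 pairs without overlap. Of single probe sets tested, 2.51% lay lower on every treated array than on every control.

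For the other 5 pairs the groups overlapped, with control replicate 4 always inside the range of the treated arrays. The differences were -1.68 for TNNI1 over the fast inhibitory subunit TNNI2, -1.47 for MYH7 over the fast 2A heavy chain MYH2, -1.32 for TNNC1 over the fast troponin C TNNC2 and -0.57 for MYL3 over the fast essential light chain MYL1. The last was -0.18 without control replicate 3. The value for TPM3 over TPM1, the alpha-tropomyosin of fast fibres, was -1.47 and rested on control replicate 2, at 3.07 against -0.42 to 0.60 on the other 3 controls. With that array left out the value was -0.70. The number of pairs without overlap was 5 when control replicate 4 was left out and 4 when corticosteroid replicate 1 was. Without corticosteroid replicate 3 it was 3, and it was 2 without any 1 of the other 5 arrays. Of single probe sets tested, 4.23% lay lower on every treated array without control replicate 4. This share was 5.75% without corticosteroid replicate 1 and 3.47% without corticosteroid replicate 3. The pairs rest on members chosen by this same comparison, so nothing is read from these counts.

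**Figure D4:**
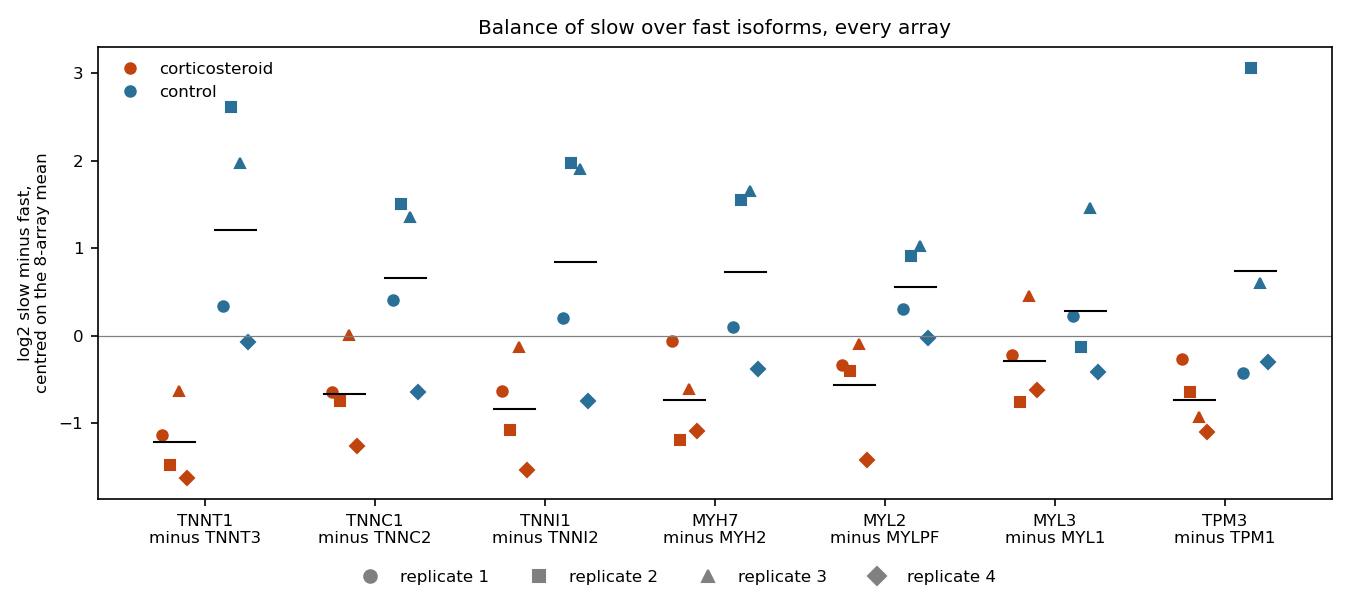
Log2 level of each slow isoform minus that of its fast counterpart, centred on the mean over the 8 arrays (vertical axis), for 7 pairs of genes. Each marker is 1 array, shape gives the replicate number, colour the group, and the black line is the group mean. TNNT1 over TNNT3 and MYL2 over MYLPF do not overlap, and control replicates 2 and 3 hold the 2 highest places in 6 of the pairs.

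The fast counterparts contributed unequally to these balances. TNNT3 had log2 levels of 13.77, 13.84, 13.90 and 14.00 on corticosteroid replicates 1 to 4, and 13.65, 12.58, 13.13 and 13.53 on control replicates 1 to 4. Like TNNC2 it was higher on every treated array than on every control, which held for 2 of the 7 fast counterparts and for 3.05% of the probe sets tested. The difference was 0.66 (limma SE 0.21) for TNNT3, 0.59 for TPM1, 0.51 for TNNI2, 0.43 for TNNC2, 0.29 for MYH2, 0.13 for MYLPF and 0.01 for MYL1. None passed in limma, with adjusted p-values of 0.479 to 0.978. Control replicate 2 was the lowest of the 8 arrays for 7 of 7 fast counterparts. Without it TNNT3 differed by 0.44, TNNC2 by 0.25, TNNI2 by 0.31, MYH2 by 0.06, MYLPF by 0.07, MYL1 by -0.03 and TPM1 by 0.45. MYH2 differed by 0.45 without corticosteroid replicate 1. The mean signals of these 7 probe sets, 13.16 to 13.99, lay near the highest value in the table, 14.59, and whether the scale is compressed there was not tested. The other 2 TPM1 probe sets differed by -0.03 and -0.21, against 0.59 on its lead.

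Other genes typical of slow fibres were taken as a list of 28, of which 18 were tested. Of these, 14 had lower and 4 higher means with corticosteroid, 0 passed in limma, and the median difference was -0.77. For 2 of the 18, ATP2A2 and CRYAB, every treated array lay below every control, as did 2.51% of all probe sets tested. The list held several genes that other muscle cells and stress states also use, and it was drawn up with earlier results known.

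ATP2A2, the calcium pump of slow and cardiac sarcoplasmic reticulum, read 10.14, 10.96, 10.29 and 10.83 on corticosteroid replicates 1 to 4, and 11.48, 11.98, 11.98 and 11.07 on control replicates 1 to 4. Its difference was -1.07 (limma SE 0.26, adjusted p = 0.469). The other 3 ATP2A2 probe sets, of lower signal, overlapped between groups and differed by -0.98, -0.92 and 0.37, and the mean over all 4 was -0.65. PLN, phospholamban, the inhibitor of that pump, read 7.80, 7.47, 6.74 and 6.85 on the treated arrays and 8.45, 9.02, 9.15 and 7.59 on the controls, a difference of -1.34 (adjusted p = 0.469 in limma). FABP3, the fatty acid carrier of oxidative fibres, differed by -1.04 and XIRP2, an actin-binding protein of the Z-disc and junctions, by -0.86 (adjusted p = 0.479 for both in limma). Control replicate 4 was the lowest control for ATP2A2, PLN, FABP3 and XIRP2, as it was for the 7 slow sarcomere genes. Without control replicate 4 the number of these 18 genes without overlap was 9, where 4.23% of the probe sets tested lay so. It was 6 without corticosteroid replicate 1 (5.75% of those tested) and 4 without corticosteroid replicate 2 (4.06%). With any other single array left out it stayed at 2. Leaving out an array cannot lower such a count, and the list was drawn up with earlier results known, so nothing is read from these counts.

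**Figure D5:**
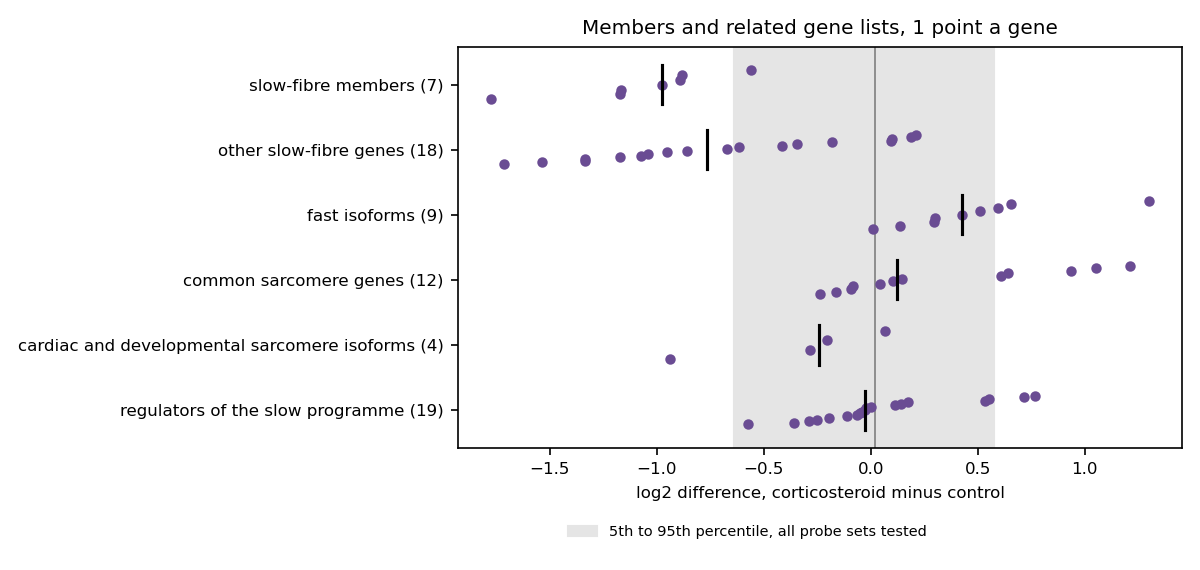
Log2 difference, corticosteroid minus control (horizontal axis), for the 7 slow-fibre genes and 5 related lists, with 1 point a gene, a black line at each list's median and the number of genes in brackets. The grey band holds the 5th to the 95th percentile of all probe sets tested (-0.64 to 0.58), and 6 of the 7 slow-fibre genes lie to its left.

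The fast list of 17 genes had 9 tested, all with higher means and a median difference of 0.43, and 0 passed in limma. Beside the 7 counterparts it held TPM2 (0.30, adjusted p = 0.593), the beta-tropomyosin found in slow and fast fibres, and ATP2A1 (1.30, adjusted p = 0.524), the calcium pump of fast fibres. ATP2A1 read 11.91, 12.26, 11.78 and 12.55 on corticosteroid replicates 1 to 4, and 11.88, 8.82, 10.96 and 11.63 on control replicates 1 to 4, so that control replicate 2 again lay lowest, and without it the difference was 0.63. Without control replicate 2 the median of the fast list was 0.25, with 1 of 9 means lower.

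Sarcomere genes used by both fibre types had a median difference of 0.12 (0.066 without corticosteroid replicate 4, 0.074 without corticosteroid replicate 2, 0.19 without control replicate 1), with 8 of 12 means higher and 0 past the threshold. The members of smallest p were the M-band protein MYOM1 (1.21), the thin-filament capping protein TMOD4 (1.05), the actin nucleator LMOD3 (0.61) and the titin cap TCAP (0.64), with adjusted p-values of 0.479 to 0.536 in limma. TMOD4 differed by 0.70 without control replicate 2, LMOD3 by 0.38 without control replicate 3 and TCAP by 0.39 without corticosteroid replicate 4.

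Cardiac and developmental isoforms were represented by 4 tested genes, 3 with lower and 1 with a higher mean. Leaving out control replicate 1 gave 1 lower mean, and leaving out corticosteroid replicate 1 or 2 gave 2. ACTC1, the cardiac actin also made in developing and regenerating skeletal muscle, read 8.89, 8.38, 9.62 and 9.17 on corticosteroid replicates 1 to 4, and 10.05, 11.30, 9.67 and 8.80 on control replicates 1 to 4. Its difference was -0.94 (adjusted p = 0.552 in limma) and -0.49 without control replicate 2. TNNT2, the cardiac troponin T, was high on 2 arrays, corticosteroid replicate 3 (7.09) and control replicate 1 (7.58), against 4.53 to 5.98 on the other 6. MYL4, an atrial and fetal light chain, stood at 8.13 on control replicate 1 and at 5.55 to 6.63 elsewhere. The cardiac troponin I, TNNI3, differed by 0.07. These signals followed the array order of the slow genes only in part. ACTC1 and MYL4 were highest of the treated arrays on corticosteroid replicate 3 and lowest of the controls on control replicate 4. Control replicate 3, where most slow genes had their highest control value, was the highest control for none of the 4 genes.

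Of 42 regulators linked to the slow or fast programme, 19 were tested, 11 with lower and 8 with higher means, with a median difference of -0.03. Without control replicate 4, 6 of the 19 had lower means and the median was 0.12, and without corticosteroid replicate 4 the median was -0.13. None passed in limma. The groups did not overlap in 0 of 19, against 2.51% below and 3.05% above over the probe sets tested, and without corticosteroid replicate 1 in 3, all above (6.18% of those tested). With any other single array left out the count stayed at 0. Leaving out an array cannot lower it, so nothing is read from the rise. SOX6, a repressor of slow-fibre genes in mouse and zebrafish, read 5.30, 6.09, 5.90 and 6.46 on corticosteroid replicates 1 to 4, against 5.31, 4.97, 4.63 and 5.76 on control replicates 1 to 4. Its mean was higher by 0.77 (limma SE 0.29, adjusted p = 0.482), with corticosteroid replicate 1 inside the range of the controls and control replicate 4 the highest control. The mean SOX6 level over the 8 arrays, 5.55, lay near the filter level of 5.27. With 16 added to the linear values SOX6 differed by 0.57. The class II histone deacetylase HDAC5 had a higher mean by 0.55 (adjusted p = 0.524), the calcineurin catalytic subunit PPP3CB by 0.53 (adjusted p = 0.540) and the AMP kinase subunit PRKAA2 by 0.71 (adjusted p = 0.563, limma). The other 2 PPP3CB probe sets differed by 0.26 and -0.17, and the mean over the 3 was 0.21. Without corticosteroid replicate 4 PPP3CB differed by 0.33 and PRKAA2 by 0.38.

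The genes most like the slow set in their variation within groups were found by Pearson's r with the mean deviation of the 7 genes over the 8 arrays. The 10 closest, with r of 0.89 to 0.96, were TMED10, CLEC2D, RTN3, FTL, LOC100523870, PACSIN2, DNAJC3, SLC35B3, RPL36AL and BUB3. The search took in every gene with 1 symbol and a tested probe set, with the 7 members left out. The highest values of so wide a search over 8 arrays are not read as a link. No sarcomere gene was among the 10. TMED10 (r = 0.96) read 10.20, 10.26, 10.43 and 9.98 on corticosteroid replicates 1 to 4, and 10.31, 10.75, 10.86 and 10.09 on control replicates 1 to 4. Of these 10 genes, 8 had lower and 2 higher means with corticosteroid, from -0.96 for LOC100523870 to 0.16 for RPL36AL. FTL is among the 8 and RTN3 among the 2, and each had the other sign as a mean over all its probe sets, 0.20 for FTL and -0.011 for RTN3. Without control replicate 3 LOC100523870 differed by -0.57, and without control replicate 4 RPL36AL differed by 0.091. For CLEC2D (-0.68) every treated array lay below every control, as did 2.51% of all probe sets tested.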

How the data were processed

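Per the submitters' processing notes, the deposited log2 expression levels were made with MAS5. Their scaling step is not stated in what was used here. Medians of the arrays lay between 5.86 and 5.97, and nothing was rescaled. The number of arrays limits the precision. The probe IDs follow plain text order. Corticosteroid values were re-assigned to the IDs sorted with full stops ignored, which put 9389 probe sets (39.1%) at another row. The correlation of group means across those probe sets was 0.0997 as deposited and 0.989 re-assigned. Control columns stayed as listed, and the order rests on the data. Probe sets were named from the platform annotation, and all 9 member probe sets had a current symbol by gene ID. Without the 64 reporter probe sets, those above the 40th percentile of mean level (5.27) were tested with limma 3.58.1 in R 4.3.3 (eBayes with an intensity trend, Benjamini-Hochberg at 0.05), which was checked on simulated data. All 9 member probe sets passed the filter, and SEs are limma's. Tables used Python 3.11.15. Members, lists and tests were chosen with earlier results of these data known. The text names all member probe sets, the fast counterparts, up to 4 genes of smallest p per list and the 10 genes of closest likeness. AIF1, CD14, CRYAB, HBB and ALAS2 were named after their values were seen, and so were the other macrophage genes and the fibroblast genes. Same-numbered arrays were not paired (r of their deviations -0.25 to 0.11). Sequences were not used here.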

Additional observations from a re-analysis of the deposited data

Results flagged for a closer look

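In 46 groups of 4 arrays, over the member probe sets, the balances and the fast counterparts, 3 values, on 2 arrays, lay further from the rest of their group than the critical value of Dixon's test allows, where chance gives about 1 group in 20. Control replicate 2 read 11.15 on the lead TPM3 probe set, with the next control at 8.78, and 11.01 on the second, with the next at 8.58. Both probe sets are annotated to 1 accession and are not separate findings. A count of 3 in 46 groups is near what that rate gives, and the balances reuse the same probe sets, so nothing is read from the count. Corticosteroid replicate 1 read 13.16 for MYH2, the fast 2A myosin heavy chain, with the next treated array at 13.74.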

How the results depend on the processing

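With the rows as deposited, limma called 5454 probe sets in place of 0 and the median difference over the 7 slow-fibre genes was -1.78. In that order TNNC1 differed by -7.27, MYL2 by -7.61, TNNI1 by -2.95 and the third TPM3 probe set by -3.92. Signs also turned there for TNNC2 (-6.73), MYLPF (-8.44), PPP3CB (-3.19), TNNI3 (-0.61), TNNT2 (0.36) and RPL36AL (-7.65). TNNT1, MYH7 and MYL3 had the same values in either order. The replicate block called 0 probe sets (smallest adjusted p 0.532), and under the other settings with all 8 arrays 0 were called as well. The lowest and highest counts with 1 array left out were 0 and 1, the 1 being AKR1CL1 without control replicate 3, with 894 to 1777 at an unadjusted p under 0.05. The median over the 7 genes ran from -1.23 to -0.80 with 1 array left out, and the mean balance from -1.80 to -1.13. Without corticosteroid replicate 4 and control replicate 2 together, chosen after seeing the data, they were -0.64 and -0.96. No member's difference changed sign under any setting run. Small differences that turned with 1 array left out were MYL1 (-0.028 to 0.052), MYL4 (-0.63 to 0.23), TNNI3 (-0.11 to 0.15), TNNT2 (-0.74 to 0.43), RTN3 (-0.089 to 0.34) and BUB3 (-0.18 to 0.057). Others were MYL1 after quantile normalization (-0.048), TNNI3 with array weights (-0.011), and RTN3 (-0.011) and FTL (0.20) as means over all probe sets of the gene. Without both arrays MYL1 was -0.0036, TNNI3 -0.13, SLC35B3 0.074 and BUB3 0.045.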
